A study of Mus musculus with 4 samples.

Results

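Megakaryocyte-erythroid primed cells were the 373 of 16207 genotype-assigned single cells at homeostasis that held at least 1 unique molecular identifier (UMI) of at least 3 of 8 genes: Pf4, Gata1, Mfsd2b, Car1, Treml1, Rhag, Gp1bb and Aqp1. They are called gated cells here, and the remaining 15834 are called the other singlets; with the library made 9 days after 5-fluorouracil (5-FU, 100 mg/kg), a drug that kills dividing cells, the series held 25236 singlets in all. The cells were bone marrow LSK cells (Lineage- Sca-1+ cKit+), the marrow fraction of stem cells and early multipotent progenitors, from male mice on a C57BL/6 background. Wild-type cells came from a pool of 2 Sin3B F/F mice, which carry floxed alleles but no Cre, and knockout cells from a pool of 2 Sin3B F/F; Vav1-iCre mice, in which a hematopoietic promoter drives the recombinase. Each pool was stained with its own hashtag antibody and the 2 pools were loaded together in equal numbers, so the genotypes share a library but neither has a replicate. No test between genotypes was therefore possible. Ranges in parentheses are 95% intervals for counting error only and say nothing of the spread between mice. Those of levels and ratios take each UMI as an independent draw, so they leave out the spread between cells too.

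Megakaryocytes, the source of platelets, and erythrocytes arise from progenitors that share the transcription factor Gata1. Gata1 acts with Fog1 (Zfpm1), Tal1 and Gfi1b in both lineages, with Klf1 as a partner on the erythroid branch and with ETS factors such as Fli1 on the megakaryocytic branch. Some stem cells and multipotent progenitors already carry transcripts of these lineages before they leave the LSK fraction, and such cells are called primed. Sin3B is a scaffold of a histone deacetylase complex that represses transcription.

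Among the gate genes, Pf4 encodes a chemokine of platelet granules, Treml1 a receptor of platelet granules and Gp1bb a subunit of the platelet receptor for von Willebrand factor. Car1 encodes a carbonic anhydrase of red cells, Rhag the Rh-associated glycoprotein and Aqp1 a water channel of the red cell membrane. Mfsd2b encodes the transporter that exports sphingosine-1-phosphate from red cells and platelets. Since these genes chose the cells, their levels describe the gate and are not findings.

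The promoters of Klf1, Epor, Pf4 and Itga2b are shown because these are among the erythroid and megakaryocyte genes used below to describe the gated cells. Each sequence is the 250 bases before the RefSeq start in GRCm38.p6, read 5′ to 3′ on the gene's strand. Capitals mark matches to the GATA motif (GATA after A or T and before A or G, either strand) in Klf1 and Epor, and to the ETS motif (GGAAG after A or C, either strand) in Pf4 and Itga2b. The motifs do not overlap in any of these windows. The windows lie at chr8:84901732-84901981 (plus strand) for Klf1, chr9:21963577-21963826 (minus strand) for Epor, chr5:90772185-90772434 (plus strand) for Pf4 and chr11:102469884-102470133 (minus strand) for Itga2b.
Klf1: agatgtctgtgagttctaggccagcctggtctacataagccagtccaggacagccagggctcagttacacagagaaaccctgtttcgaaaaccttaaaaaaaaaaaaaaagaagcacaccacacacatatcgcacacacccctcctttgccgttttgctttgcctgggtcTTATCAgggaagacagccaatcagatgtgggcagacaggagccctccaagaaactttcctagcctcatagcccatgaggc
Epor: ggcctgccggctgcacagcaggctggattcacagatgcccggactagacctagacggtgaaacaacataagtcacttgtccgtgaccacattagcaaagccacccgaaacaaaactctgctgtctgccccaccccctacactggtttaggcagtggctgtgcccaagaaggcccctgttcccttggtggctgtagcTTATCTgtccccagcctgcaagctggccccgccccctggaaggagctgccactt
Pf4: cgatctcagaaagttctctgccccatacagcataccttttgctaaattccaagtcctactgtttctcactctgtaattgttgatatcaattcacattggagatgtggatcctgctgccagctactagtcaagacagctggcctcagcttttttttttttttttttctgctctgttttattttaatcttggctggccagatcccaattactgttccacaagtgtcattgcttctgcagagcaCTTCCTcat
Itga2b: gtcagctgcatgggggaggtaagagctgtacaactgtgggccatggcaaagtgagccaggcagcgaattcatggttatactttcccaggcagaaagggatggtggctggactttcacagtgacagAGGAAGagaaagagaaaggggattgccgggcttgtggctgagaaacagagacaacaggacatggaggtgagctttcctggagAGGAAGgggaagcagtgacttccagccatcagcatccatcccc
A GATA match stood in 24.7% of all 20038 promoter windows and an ETS match in 40.9%. Of the erythroid list used below, 13 of the 21 genes with a window (61.9%) held a GATA match and 2 (9.52%) held an ETS match. The megakaryocyte list had a GATA match in 10 of 23 windows (43.5%) and an ETS match in 12 (52.2%). Of the 20 leading genes of the gate named below, 12 had a window, with a GATA match in 2 and an ETS match in 3, smaller shares than over all windows. These counts describe letters in a short window, not occupied sites.

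Mfsd2b was detected in 79.1% of gated cells against 3.70% of the other singlets, Pf4 in 78.6% against 14.2% and Gata1 in 69.7% against 3.05%. Aqp1 followed at 40.5% and 1.11%, Treml1 at 31.1% and 1.38%, Rhag at 27.3% and 0.947%, and Car1 at 22.0% and 2.74%. Gp1bb was rare, with 12 UMIs in 2.95% of gated cells. Most cells only just entered the gate, since 233 of 373 held exactly 3 markers, 99 held 4, 33 held 5, 6 held 6 and 2 held 7. The level in free RNA bears on the signal outside the gate, and its part there was not tested. Barcodes under 100 UMIs held 53.6 Pf4 CPM (UMIs of a gene per 1000000 UMIs), above the 31.8 CPM of the other singlets. Of the 1775 singlets with 3 or more UMIs of Dntt, a lymphoid gene, 10.0% had a Pf4 UMI (median depth 9071 UMIs, against 6812 in the other singlets), so a single Pf4 UMI did not set a cell apart, and 21 of these cells (1.18%) were gated.

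**Figure D1:**
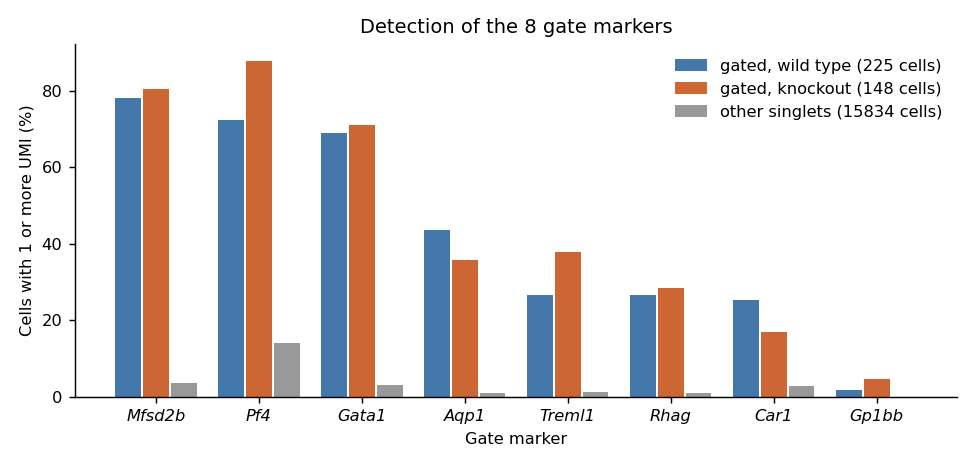
Share of cells with 1 or more UMI (y axis, percent) of each gate marker (x axis) in gated wild-type cells, gated knockout cells and the other singlets, as bars; the markers chose the gated cells. Mfsd2b, Pf4 and Gata1 were found in most gated cells, and Pf4 was the marker with the highest share among the other singlets, at 14.2%.

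The gate also chose deep cells, which have more chances to show 3 markers. Gated cells had a median of 12137 UMIs and 4066 genes, against 6812 UMIs and 2873 genes in the other singlets, with 2.11% and 2.19% mitochondrial UMIs. Gated wild-type and knockout cells differed little in depth, with medians of 12397 and 11869.5 UMIs.

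Cells just inside and just outside the 3-marker limit are set side by side here. The megakaryocyte list (30 genes including Itga2b, Vwf and Gp9, without the gate genes) held 28.0 UMIs per 10000 in cells with 2 markers and 40.4 in cells with 3. The erythroid list (29 measured genes including Klf1, Epor and Tfrc) held 12.0 and 15.7, the lymphoid list 5.29 and 3.68, and the G2M list of mitotic genes 19.3 and 22.6. The erythroid regulator Klf1 stood at 6.26 CPM with 2 markers, 12.2 CPM with 3 and 52.0 CPM with 4 or more. The megakaryocyte list held 39.6 UMIs per 10000 with 4 or more markers, close to its value with 3, and Itga2b stood at 125.2 CPM with 3 and 126.3 CPM with 4 or more. Gp9 was level as well, at 42.6 CPM in both, but Vwf stood at 30.1 CPM with 3 and 53.5 CPM with 4 or more.

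Against the other singlets, 206 of the 9337 genes with 50 or more UMIs in gated cells (2.21%) were at least 2-fold higher and 119 (1.27%) at least 2-fold lower. These cells were selected on related genes, so the differences are a description. Of the 20 leading genes, 8 were on the megakaryocyte list. Cavin2, a coat protein of caveolae, stood at 74.4 CPM in gated cells and 9.47 CPM in the others (log2 ratio 2.97). Vwf, the platelet and endothelial adhesion protein, stood at 39.9 and 8.33 CPM, Gp9, a subunit of the same platelet receptor as Gp1bb, at 42.6 and 9.60 CPM, and Itga2b (CD41) at 125.7 and 28.5 CPM. The thrombin receptor F2r, the granule GTPase Rab27b and the integrin Itgb3, partner of Itga2b, had log2 ratios of 2.18, 2.05 and 1.64. Gfi1b, the repressor needed in both lineages, stood at 47.5 and 12.2 CPM. The remaining leading genes included Abcb4 (2.43), Plcb1 (2.18), a phospholipase, Tgfbr3 (1.61), a TGF-beta co-receptor, Blvrb (1.91), the biliverdin reductase of red cells, Zg16 (2.80), Tnfaip2 (1.97), Nol4l (1.73), C1qtnf12 (1.68) and Sept8 (1.62). Mt1 and Mt2, the metal-binding metallothioneins, were also among the leading genes, with log2 ratios of 2.33 and 4.20. The free RNA of barcodes under 100 UMIs held both at higher levels than gated cells did, 301 CPM for Mt1 and 157.1 CPM for Mt2 against 180.7 and 73.4 CPM, and the part of free RNA in the Mt1 and Mt2 values was not tested.

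Of the megakaryocyte list, 19 of the 20 genes with 50 or more UMIs were higher in gated cells, with a median log2 ratio of 1.55, while the median over all 9337 genes was 0.025. In the erythroid list 20 of 21 were higher (median 1.84), led by the low-abundance genes Klf1 (28.8 against 1.25 CPM) and Epor, the erythropoietin receptor (16.8 against 0.916 CPM). The heme synthesis enzymes were less raised, with a median of 0.61 over 7 genes. Among 20 transcription factors the median was 0.13, although Zfpm1, the Gata1 cofactor, stood at 1.32 and Gata2 at 0.92. That list held regulators of these lineages and also factors of others, such as Spi1. The stem cell list had a median of -0.33 over 12 genes, in which Hlf (-1.18) and Procr (-1.54) were lower and Slamf1 (CD150), carried by stem cells and megakaryocyte progenitors, was higher at 1.75. The lymphoid list had 0 of 6 genes higher and a median of -1.48, with Flt3 at 128.0 against 376 CPM. The neutrophil list had a median of -0.98 over 6 genes. CD34 (Cd34), at -1.09, and Cd48, at -1.01, were lower too. A published signature of MPP2, the multipotent progenitors biased to megakaryocytes, used by the study, had 50 of 53 genes higher (median 0.76), and that of the lymphoid-biased MPP4 had 10 of 60 higher (median -0.45).

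Cell cycle genes were higher in the gate. All 20 measured S phase genes and all 22 G2M genes stood above the other singlets, with medians of 0.69 and 0.93. The gate was read at full depth and chose deep cells, a choice that thinning does not undo. To count UMIs at an equal depth, each cell with enough UMIs was thinned to 4000 UMIs. At that depth, 57.6% (50.8–64.1) of gated wild-type cells and 57.8% (49.4–65.9) of gated knockout cells held 2 or more G2M UMIs, against 33.9% and 25.4% of the other singlets. Before thinning the 4 shares were 77.3%, 74.3%, 45.7% and 37.6%.

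The gated cells were divided by their gate markers, which describes the gate. A cell was placed on the megakaryocyte side when it held 2 or more of Pf4, Treml1 and Gp1bb and at most 1 of Car1, Rhag and Aqp1, and on the erythroid side in the mirrored case. The megakaryocyte side held 101 cells and the erythroid side 69, while 4 cells qualified on both sides and 199 on neither. Of the 116 cells with Treml1, 7 held Car1, 11 held Rhag and 36 held Aqp1, and of the 82 cells with Car1, 44 held Rhag, 42 held Aqp1 and 42 held Pf4. Genes outside the gate differed between the sides, although on the erythroid side 30 of the 69 cells carried much of the difference. Megakaryocyte-side cells held 60.6 megakaryocyte-list UMIs per 10000 (59.3–62.0) and 12.0 erythroid-list UMIs (11.4–12.6), and erythroid-side cells held 16.9 (16.2–17.6) and 26.9 (26.0–27.8). Itga2b stood at 199.6 CPM on the megakaryocyte side and 42.3 CPM on the erythroid side, and Vwf at 91.3 and 13.3 CPM. Klf1 stood at 13.0 and 76.8 CPM. Gata1, the shared regulator, stood at 76.0 and 77.6 CPM. The sides differed in depth, with medians of 11282 and 16775 UMIs. The 30 cells are the erythroid-side part of the Car1-rich set described next. Without them, the remaining 39 erythroid-side cells held 28.9 megakaryocyte-list UMIs per 10000 (27.5–30.4), still below the megakaryocyte side, but 12.7 erythroid-list UMIs (11.8–13.7), close to its 12.0. They had 6 Klf1 UMIs, 10.7 CPM (3.91–23.2), and Gata1 stood at 32.0 CPM (18.9–50.5).

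**Figure D2:**
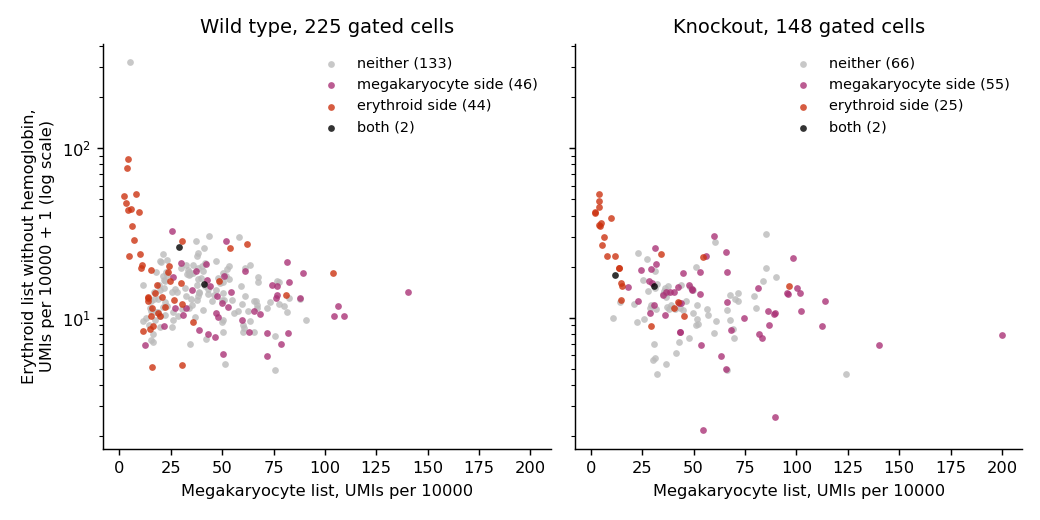
Each point is a gated cell, wild type on the left and knockout on the right, placed by its megakaryocyte-list UMIs per 10000 (x axis) and its erythroid-list UMIs per 10000 without hemoglobin, plus 1 (y axis, log scale), and coloured by side. A column of erythroid-side cells at low megakaryocyte values stood apart in both genotypes, and the knockout cells reached the highest megakaryocyte value, 200.1 UMIs per 10000.

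A small set of cells held most of the UMIs of several erythroid genes. It was picked out after its values were seen, as the 32 gated cells with 10 or more Car1 UMIs, 16 of each genotype and 30 of them on the erythroid side; 7 other gated cells had 4 to 9, the highest of which held 8. Only 2 cells outside the gate reached 10. The 32 cells made up 8.58% of the gate and were deep, with a median of 22003.5 UMIs and 14.7% of all gated UMIs. They held 96.2% of the Car1 UMIs of the gate, 97.6% of Ermap, an erythrocyte membrane protein, 93.4% of Tspo2, a translocator protein of erythroid cells, 82.4% of Ank1 and 84.1% of Kel, which encode red cell ankyrin and the Kell antigen, and 63.0% of Klf1. Metallothionein UMIs were concentrated there as well, with 84.7% of Mt2 and 65.1% of Mt1. By contrast they held 8 of the 3761 Pf4 UMIs and 0 Cavin2 UMIs. The limit that a count of 0 allows, 3 UMIs over the 32 cells, is 4.03 CPM, so Cavin2 was at least 21.6-fold lower there than the 87.2 CPM of the remaining gated cells.

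The lists divided in the same way between these 32 cells and the other gated cells. The megakaryocyte list held 7.92 UMIs per 10000 (7.30–8.59) in the Car1-rich cells and 45.6 (45.0–46.2) in the remainder, the erythroid list 37.3 (36.0–38.7) and 14.5 (14.1–14.8), and the heme enzymes 5.41 (4.90–5.97) and 1.97 (1.84–2.10). The stem cell list held 11.8 (11.05–12.6) in the Car1-rich cells and 30.6 (30.1–31.2) in the remainder. Among heme enzymes, Cpox stood at 138.3 against 21.5 CPM and Alad at 132.9 against 37.5. Alas1, at 9.40 against 18.5 CPM, and Ppox, at 10.7 against 11.6 CPM, were not higher, on 7 and 8 UMIs in the 32 cells. Alas2, which begins heme synthesis in erythroid cells, had 1 UMI in the 32 cells. Adult hemoglobin was not part of this pattern. Hbb-bs had 4 UMIs in the 32 cells and 498 in the remaining gated cells, 460 of them from 1 cell described below. Gata2 was lower in the Car1-rich cells, at 73.9 against 211.6 CPM, while Myb and Nfia, transcription factors of progenitors, were higher at 550.6 against 376.5 CPM and 568.0 against 181.3 CPM.

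Between genotypes, Sin3b itself was the check of the labels. Gated wild-type cells held 202 Sin3b UMIs in 139 cells (65.2 CPM) and gated knockout cells 31 UMIs in 28 cells (15.7 CPM), a log2 ratio of -2.03 (-2.65 to -1.50). In the other singlets the ratio was -1.78. Whether the remaining UMIs came from undeleted cells, wild-type cells called knockout among them, was not tested. Nor was the part of free RNA (66.6 CPM) or of transcript outside the deleted exons.

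The gate held a larger share of the knockout pool. It held 225 of 11579 wild-type singlets, 1.94% (1.70–2.21), and 148 of 4628 knockout singlets, 3.20% (2.71–3.75), a difference of 1.25 percentage points (0.71–1.85). With 2 markers required, the shares were 5.79% and 6.72%, and with 4 they were 0.648% and 1.40%. At 4000 UMIs per cell, which left out 835 wild-type and 360 knockout cells, the gate held 58 wild-type and 50 knockout cells, shares of 0.540% and 1.17%, and the difference was 0.632 points (0.309–1.02). Knockout shares were also the higher in each of 4 equal depth classes of singlets, though the shallow classes held few gated cells. In the shallowest, 6 knockout cells gave 0.476% (0.17–1.03) and 10 wild-type cells 0.359% (0.17–0.66). The next class held 10 and 16 gated cells, and the intervals overlapped in both classes. In the deepest class the shares were 8.86% (7.17–10.8) and 4.66% (3.94–5.47). Pf4 weighed on this difference. With the 7 other markers alone the shares were 1.04% and 1.53%, a difference of 0.498 points (0.123–0.929). In the library after 5-FU, from other mice and with depth not matched, 10.3% of wild-type and 15.8% of knockout singlets passed the gate.

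**Figure D3:**
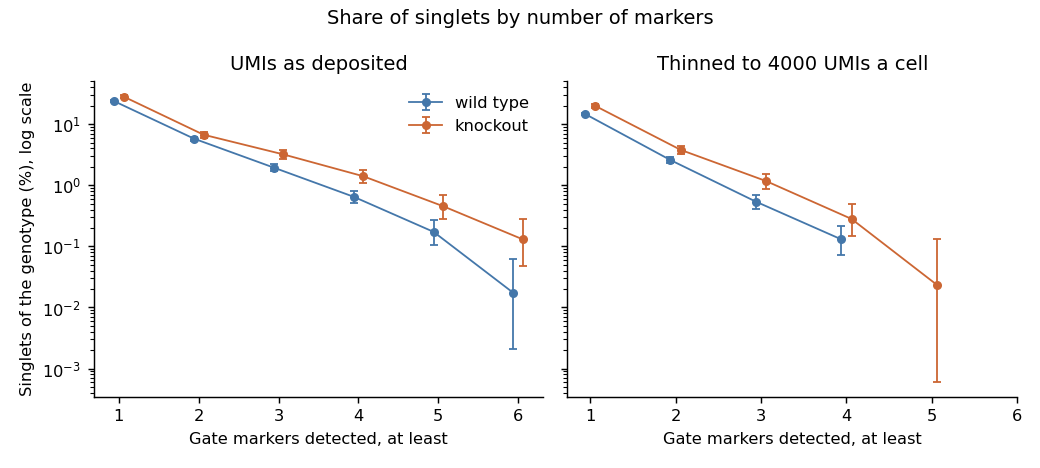
Share of wild-type and knockout singlets (y axis, percent, log scale) that held at least the number of gate markers on the x axis, with exact 95% binomial intervals for counting error, in the UMIs as deposited (left) and after thinning to 4000 UMIs per cell (right). The knockout share lay above the wild-type share at each number of markers drawn, and the intervals at 3 markers did not overlap in either panel.

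The sides were set by gate genes, so their shares by genotype are a description of the gate. The megakaryocyte side held 46 of 225 gated wild-type cells, 20.4% (15.4–26.3), and 55 of 148 gated knockout cells, 37.2% (29.4–45.5), a difference of 16.7 points (7.37–26.0). The erythroid side held 44 cells (19.6%) and 25 cells (16.9%), a difference of -2.66 points (-10.3 to 5.62). Neither side was assigned to 59.1% and 44.6%. The interval of the megakaryocyte-side difference included 0 with 4 markers required, at 13.2 points (-3.08 to 28.7), and at 4000 UMIs per cell, at 11.6 points (-5.26 to 28.0). Pf4 enters both the gate and the sides. With Pf4 left out of both, so that Treml1 or Gp1bb placed a cell on the megakaryocyte side, the wild-type share on that side was 35.0% (42 of 120) and the knockout share 47.9% (34 of 71), and the difference of 12.9 points (-1.41 to 26.8) had an interval that included 0.

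Pf4 was the gate marker that differed most between genotypes among those with 50 or more UMIs. Gated wild-type cells held 1045 Pf4 UMIs (337.2 CPM) and gated knockout cells 2716 (1379 CPM), a log2 ratio of 2.03 (1.93–2.14). Without the richest cell, a knockout cell of 368 UMIs, the ratio was 1.85. The median cell held 1 UMI in the wild type and 2 in the knockout, and the 90th percentile was 8 and 53. Cells with 10 or more Pf4 UMIs numbered 20 of 225 (8.89%) and 38 of 148 (25.7%). The share of gated cells with a Pf4 UMI was 72.4% and 87.8%. Since Pf4 is a gate gene, these values describe the gate. Pf4 was also higher in the other knockout singlets (log2 ratio 1.05), though at 51.1 CPM, near the 53.6 CPM of free RNA, and in the 5-FU gate (0.74). Treml1 was at 22.6 CPM in the wild type and 41.6 in the knockout, a ratio of 0.88 (0.40–1.36), and Mfsd2b at 97.8 and 131.5 CPM, 0.43 (0.18–0.67). For Gata1 (0.02), Rhag (0.20) and Aqp1 (0.27) the intervals included 0. Car1 was at 0.76 (0.64–0.87), and the share of Car1-rich cells was 7.11% (4.12–11.3) of the gated wild-type and 10.8% (6.31–17.0) of the gated knockout cells. A Car1 UMI, however, was found in a smaller share of knockout cells, 25 of 148 against 57 of 225. Within the Car1-rich cells, a set chosen on Car1, the ratio was 0.18 (0.06–0.30). Outside them it was -1.38 (-2.30 to -0.62), on 73 wild-type and 16 knockout UMIs.

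Over all 9337 genes, 33 (0.353%) were at least 2-fold higher in gated knockout cells and 120 (1.29%) at least 2-fold lower. Without the richest cell of each gene, 12 of the 33 and 25 of the 120 no longer passed 2-fold, while other genes came to pass it, so that the counts were 33 and 114. The balance between higher and lower genes differed under other choices. It was 13 higher and 11 lower when gate and genes were both read at 4000 UMIs per cell, with the 58 and 50 cells that then passed the gate and fewer genes over 50 UMIs, 51 and 81 without the cells over the 95th percentile of UMIs, and 59 and 88 with the 80% tag rule described below. The megakaryocyte list had 2 genes of 20 past 2-fold higher, Itgb3 and Vwf, and 0 lower. Itgb3 stood at 30.7 CPM in the wild type and 77.7 CPM in the knockout, a ratio of 1.34 (0.96–1.73), and Vwf at 27.8 and 58.9 CPM, 1.08 (0.67–1.50), or 0.93 without its richest cell. Altogether 19 of the 20 were higher in the knockout, with a median of 0.61, beside -0.01 over all genes. Cavin2 (0.81), Rab27b (0.79), Cd9 (0.75), a tetraspanin of platelets, and Gp9 (0.63) had intervals above 0, while Fli1 (0.07) differed little. In the other singlets 17 of these 20 genes were higher in the knockout (median 0.33), and in the 5-FU gate 20 of 25 (median 0.24). The summed list held 36.3 UMIs per 10000 (35.7–37.0) in gated wild-type cells and 46.0 (45.0–46.9) in gated knockout cells. Cell by cell, the values ran from 2.32 to 140.6 in the wild type with a median of 37.8. In the knockout they ran from 2.12 to 200.1 with a median of 43.3, so the genotypes overlapped over most of the range. The list median was 0.17 over 10 genes when gate and genes were read at 4000 UMIs per cell, a choice that changed cells, genes and depth together. Its approximate counting interval, -0.09 to 0.43, included 0. The list median was 0.40 with the 80% tag rule described below. This difference lay outside the 32 Car1-rich cells. Among the remaining gated cells the log2 ratio of the summed list was 0.46 (0.42–0.50), and among the Car1-rich cells it was -0.35 (-0.60 to -0.12). Within the sides it was smaller, at 0.29 (0.22–0.35) on the megakaryocyte side and 0.28 (0.22–0.34) among cells of neither side. On the erythroid side it was -0.21 (-0.34 to -0.08). The shares of the sides also differed between genotypes, and their part in the pooled ratio was not tested.

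The erythroid list divided evenly, with 11 of 21 genes higher in the knockout and a median of 0.01. The summed list gave a log2 ratio of -0.26 (-0.32 to -0.20), or -0.06 (-0.12 to 0.01) without hemoglobin genes. With hemoglobin genes included, the ratio of the summed list was -0.32 (-0.43 to -0.21) in the Car1-rich cells and -0.43 (-0.51 to -0.35) in the remaining gated cells. The remaining cells include a wild-type cell rich in hemoglobin UMIs, described below. That cell was assigned to neither side. Among the cells of neither side the ratio was -0.70 (-0.81 to -0.59) with hemoglobin genes and -0.29 (-0.40 to -0.17) without them. On the erythroid side the list was higher in the knockout, at 0.18 (0.08 to 0.28) with hemoglobin genes and 0.20 (0.10 to 0.30) without them. On the megakaryocyte side the ratio with hemoglobin genes was 0.05 (-0.10 to 0.19). Klf1 was at 22.9 CPM in the wild type and 38.1 CPM in the knockout, 0.73 (0.24–1.22), and Epor at 12.3 and 23.9 CPM, 0.96 (0.31–1.62). The Car1-rich cells, which held most Klf1 UMIs, made up 12.0% of wild-type and 18.9% of knockout gated UMIs. Within them the Klf1 ratio was 0.12 (-0.50 to 0.75) and outside them 0.77 (-0.05 to 1.60). Ctse, a protease of the erythroid list, was lower at 173.9 and 64.5 CPM, -1.43 (-1.72 to -1.15), and was also lower in the other singlets (-1.33) and in the 5-FU gate (-1.04). The remaining 4 of the 5 genes past 2-fold lower were hemoglobin genes, of whose UMIs 1 cell held most. One wild-type cell of 3726 UMIs held 763 of the 823 hemoglobin UMIs of gated wild-type cells. Gated knockout cells held 32 in all. Without each gene's richest cell, the Hbb-bt ratio turned from -2.31 to 0.82, and Hbb-bs moved from -4.90 to -0.98 and Hba-a1 from -4.95 to -1.11. Free RNA held 503 CPM of Hbb-bs, and its part in the remaining UMIs was not tested. Without the hemoglobin-rich cell and 1 Elane-rich cell described below, the erythroid median was 0.25, over 17 genes.

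**Figure D4:**
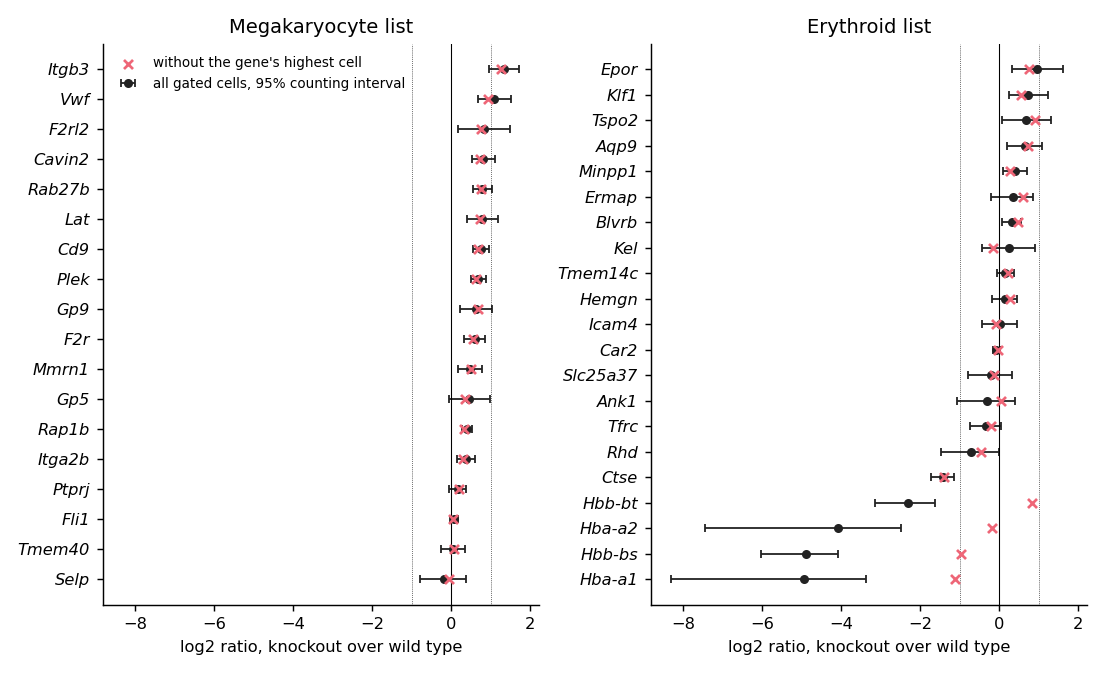
Log2 ratio of knockout over wild type in gated cells (x axis) for 18 of the 20 genes of the megakaryocyte list (left) and the 21 genes of the erythroid list (right) with 50 or more UMIs, sorted by ratio, with 95% counting intervals as bars; crosses give the ratio without the cell richest in that gene, and dotted lines mark 2-fold. The megakaryocyte genes drawn lay right of 0 except Selp, whereas the 4 hemoglobin genes moved by over 3 log2 units once 1 cell was left out.

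Other genes higher in the knockout had different roles. Mt1 stood at 103.3 CPM in gated wild-type cells and 302.5 CPM in gated knockout cells, 1.55 (1.35–1.75), and Mt2 at 47.8 and 113.7 CPM, 1.25 (0.95–1.56). Both were also higher in the other knockout singlets, at 2.05 and 2.49, and in the 5-FU gate, at 1.50 and 3.12. Outside the Car1-rich cells the Mt2 difference was larger, 2.95 (2.00–4.15), on 10 wild-type and 47 knockout UMIs. Aldh1a1, a retinaldehyde dehydrogenase of stem cells, stood at 18.1 and 53.3 CPM (1.55) and was higher in the other singlets (1.52), but was at -0.09 in the 5-FU gate. Cnot6, a deadenylase subunit, had the most UMIs among the genes outside the gate list named by rank for being higher, at 176.5 and 398.5 CPM (1.17), and was at -0.23 in the 5-FU gate. The others named by rank were Agbl4 (1.62) and Gm49980 (1.62), Traip (1.20), a ubiquitin ligase of replication, Sun1 (1.18) of the nuclear envelope, Med20 (1.13) of Mediator and 1700034P13Rik (1.09), which was at 0.77 without its richest cell.

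Genes of other lineages were lower in gated knockout cells. All 6 measured lymphoid genes were lower, with a median of -0.99. Dntt, the terminal transferase of early lymphoid cells, had 153 UMIs in 52 wild-type cells and 11 UMIs in 9 knockout cells, -3.08 (-4.18 to -2.26), and was at -1.25 in the other singlets. Flt3, the receptor of lymphoid-primed progenitors, stood at 158.8 and 79.7 CPM, -0.99 (-1.26 to -0.73), and at -0.20 in the other singlets. All 6 measured neutrophil genes were lower as well, with a median of -1.09, but 1 wild-type cell weighed on them. This cell, the deepest of the gate at 56822 UMIs, held 123 of the 153 Elane UMIs and 156 of the 332 Mpo UMIs of gated wild-type cells. It held 5 gate markers and lay on the megakaryocyte side. Without this cell and the hemoglobin-rich cell, the neutrophil median was -0.71, with 1 of 5 genes higher, and the lymphoid median was -1.01. Rnf220, a ubiquitin ligase, was the most abundant of the genes named for being lower, at 736.0 and 214.2 CPM, -1.78 (-1.93 to -1.63). Auts2, a regulator of transcription, stood at 222.0 and 51.3 CPM (-2.11), Ccser1 at 87.8 and 18.3 CPM (-2.25), BC035044 at 47.8 and 13.2 CPM (-1.83), Ndufs5, a subunit of mitochondrial complex I, at 49.4 and 10.2 CPM (-2.25), and Il18r1, an interleukin-18 receptor chain, at 33.2 and 10.2 CPM (-1.68). Auts2 and Il18r1 were also lower in the 5-FU gate, at -1.71 and -2.21, whereas Ndufs5 was at 0.23 and Rnf220 at -0.03.

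Stem cell genes were not higher as a list in gated knockout cells. The list had 3 of 12 genes higher and a median of -0.10, with Mecom at -0.09 (-0.20 to 0.01), Hlf at -0.74 (-0.92 to -0.57) and Procr at -0.82 (-1.71 to -0.05). Slamf1 was at 0.88 (0.38–1.39). In the other singlets 11 of these 12 genes were higher in the knockout (median 0.41), where Hlf was at 0.08 and Procr at 0.65. The list median in gated cells was 0.07 with 2 markers required and 0.06 at 4000 UMIs per cell.

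Mitotic genes gave opposite values inside and outside the gate. In gated cells 21 of 22 G2M genes were higher in the knockout, with a median of 0.42, and the summed list held 20.9 UMIs per 10000 (20.4–21.4) in the wild type and 27.5 (26.7–28.2) in the knockout. In the other singlets 0 of 22 were higher, with a median of -0.48, and the sums were 13.5 and 9.98. Ccnb2, a mitotic cyclin, was at 74.5 CPM in gated wild-type cells and 116.2 CPM in gated knockout cells, 0.64 (0.37–0.91), and at -0.66 in the other singlets. Mki67, the proliferation antigen, was at 315.3 and 415.2 CPM, 0.40 (0.26–0.53), and at -0.35 in the other singlets. The share of cells with 2 or more G2M UMIs at 4000 UMIs was nearly the same, at 57.6% and 57.8%. The S phase list had 14 of 20 genes higher and a median of 0.08, but the share of cells with 2 or more S phase UMIs at 4000 UMIs was 91.5% (87.1–94.8) in gated wild-type cells and 82.3% (75.2–88.1) in gated knockout cells. The G2M difference was smaller with other numbers of markers required. The log2 ratio of the summed list was 0.17 (0.13–0.21) with 2 markers and 0.22 (0.14–0.30) with 4. The difference also depended on how cells were assigned to a genotype. In another rule, a cell was assigned only where 1 tag held 80% or more of its hashtag UMIs, with a minimum of hashtag UMIs. The rule was applied afresh to all 23931 cells, so it could take in cells left out of the main assignment. It gave 1025 knockout and 6973 wild-type cells, of which 41 and 113 were gated. Under this rule the log2 ratio of the summed list was -0.03 (-0.11 to 0.06), against 0.40 (0.34–0.45). It was 0.82 (0.59–1.04) in the 58 and 50 cells that passed the gate when it too was read at 4000 UMIs per cell, whereas the shares of cells above are those of the original gate. Parts of the gate gave different values. The summed ratio was -0.21 (-0.37 to -0.06) in the Car1-rich cells and 0.51 (0.45–0.56) in the remainder, and -0.03 (-0.16 to 0.10) on the erythroid side and 0.42 (0.32–0.52) on the megakaryocyte side.

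**Figure D5:**
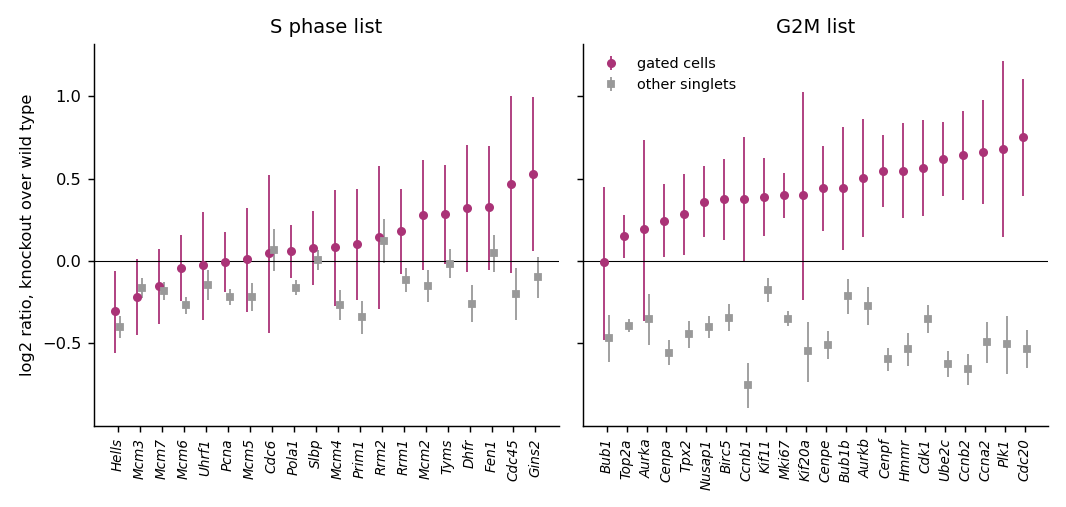
Log2 ratio of knockout over wild type (y axis) for the genes of the S phase (left) and G2M (right) lists, in gated cells (circles) and in the other singlets (squares), with 95% counting intervals as bars. All 22 G2M genes lay below 0 in the other singlets and 21 of 22 lay above 0 in gated cells, under the main genotype assignment.

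The list of transcription factors, which held factors of other lineages such as Spi1 besides the regulators of these lineages, was close to level. The 20 measured transcription factors had a median of 0.03, and 0 were past 2-fold. Gfi1b was at 38.4 CPM in the wild type and 61.9 CPM in the knockout, 0.69 (0.31–1.07), Gata2 at 0.32 (0.13–0.50) and Zfpm1 at 0.28 (0.09–0.47). Spi1 (PU.1), the myeloid and lymphoid factor, was at 70.7 and 44.7 CPM, -0.66 (-1.04 to -0.30), and Erg at -0.40 (-0.58 to -0.22). Of the receptors, Cd34 stood at 170.7 and 95.9 CPM, -0.83 (-1.08 to -0.59), Cd48 at -0.77 (-1.21 to -0.36), and Kit at -0.13 (-0.27 to 0.01). Among 22 cell cycle regulators, 14 were higher and 8 lower in the knockout, with a median of 0.06, and the summed list was at -0.06 (-0.11 to -0.02). The inhibitor Cdkn1c had 21 wild-type and 4 knockout UMIs, too few for the 50-UMI filter. Cdk6 was lower at 1508 and 1175 CPM, -0.36 (-0.43 to -0.29). The study's MPP2 signature had 39 of 53 genes higher in the knockout, with a median of 0.28, its MPP4 signature 18 of 60, with a median of -0.23, its MPP3 signature 18 of 51 (-0.12) and its long-term stem cell signature 59 of 98 (0.09).

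In the 5-FU gate, from other mice, 16 of 30 measured higher genes (53.3%, beside 62.0%) and 76 of 94 measured lower genes (80.9%, beside 65.6%) pointed the same way. Outside the gate the comparison used the same mice and library, so no share is given for the other singlets.

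Markers of other cell types that an LSK sort could hold were low in the gate. The mast cell and basophil list held 0.341 UMIs per 10000 in gated cells and 0.350 in the others, the endothelial list 0.621 and 0.619, the macrophage list 0.110 and 0.107, the B and T cell list 0.00789 and 0.0503, and the eosinophil list 0.00197 and 0.00223. Between genotypes in the gate, the mast cell and basophil list held 0.416 UMIs per 10000 in the wild type and 0.223 in the knockout, a log2 ratio of -0.89 (-1.43 to -0.39), and the macrophage list 0.152 and 0.0457, -1.67 (-2.95 to -0.69). The endothelial list held 0.610 and 0.640, 0.07 (-0.27 to 0.40). The part of these cell types in the differences between genotypes, the lower lymphoid and neutrophil genes included, was not tested.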

How the data were processed

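LSK cells were profiled by droplet 3′ single-cell RNA-seq. The authors made the deposited UMI counts per gene and barcode with Cell Ranger, version 4 at homeostasis and 6.0.1 after 5-FU per the file headers, and the submitters' processing notes name mm9. These counts were not normalized. The labels name the condition, and which hashtag marks which genotype came from the study's methods. Gene names of the homeostasis matrix came from the 5-FU feature list after the row order was checked (Pearson r of log counts across genes 0.929 in order, 0.388 or less when shifted).

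Barcodes with 2921 or more gene UMIs were kept and assigned with HTODemux (Seurat 5.3.0, R 4.3.3, quantile 0.99). Of 23931 cells, 11579 were wild type and 4628 knockout, and 1441 with both tags and 6283 with none were left out. The study removed lineage-primed cells and the extremes of quality; here both were kept. Doublets within a genotype remain, since no doublet caller was run. The 2 libraries shared 76 cell barcodes.

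UMIs were summed over cells per genotype (3099015 wild-type and 1969937 knockout UMIs in the gate) with Python 3.11.15, numpy 2.4.6, scipy 1.17.1 and pandas 2.3.3. CPM is UMIs per 1000000 of the sum. A log2 ratio used a pseudocount of 0.5, a gene needed 50 UMIs over both pools, and called means 2-fold, a size and not a test. Intervals were exact conditional, Poisson or Clopper-Pearson, Newcombe for differences of shares, and approximate for list medians, built from the intervals of the genes. The script was tested on simulated data. Named genes were the gate markers, Sin3b, the 20 genes with the highest ratio of gated over other singlets (200 UMIs and 15% of cells or more), the 12 highest and 12 lowest between genotypes outside the gate markers (100 UMIs or more) and the members of the lists, some of which are not reported by name here. The set of 32 Car1-rich cells was chosen after its values were seen. Gate members, gene lists and rules were chosen with earlier results of these data known, and the MPP signatures came from the study. Promoters came from RefSeq (GRCm38.p6), and no position of the matrices was used.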

Additional observations from a re-analysis of the deposited data

Results flagged for a closer look

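Cells left out of the genotype comparison also passed the marker gate. Of the 6283 cells with no hashtag call, 160 passed, 2.55% (2.17–2.97), and their median depth in the gate was 10201 UMIs. Of the 1441 cells called with both hashtags, 67 passed, 4.65% (3.62–5.87), with a median of 18005 UMIs in the gate. These cells belong to no comparison above. Beside the shares of the assigned cells, 1.94% and 3.20%, the cells without a tag lay between the genotypes and those with both tags lay above them.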

How the results depend on the processing

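No paired analysis was possible because each genotype was 1 pool with 1 replicate number, and leaving out a replicate was not possible either. Moves below are relative to the counting interval. The megakaryocyte-side difference was 11.5 to 20.01 points under the 8 alternatives run, and its interval included 0 under 3 of them: 4 markers, thinning to 4000 UMIs, and the gate and sides without Pf4, which was chosen after seeing the data. The difference in gate share was 2.38 points with the 80% tag rule, 0.632 after thinning to 4000 UMIs and 0.498 without Pf4. The megakaryocyte median was 0.397 with the 80% tag rule, 0.169 after thinning, 0.465 with the mean of per-cell CPM and 0.483 in a gate without Car1. The erythroid median was 0.333 without the top and bottom 2% of cells by quality, 0.270 with a minimum of 5000 UMIs, -0.303 without the UMI filter on genes and 0.261 in a gate without Rhag. The stem cell median was 0.0656 with 2 markers and 0.0563 after thinning, against -0.10. Genes past 2-fold numbered 24 after thinning (13 higher in the knockout and 11 lower), 24 with 200 UMIs (7 and 17) and 3332 without a filter (1623 and 1709), against 153 (33 and 120). The G2M sum ratio was 0.170 with 2 markers, 0.221 with 4, 0.563 without the quality extremes, 0.598 without cells over the 95th percentile of UMIs and 0.817 after thinning. With the 80% tag rule it was -0.0256, and its interval (-0.108 to 0.056) included 0. The S phase ratio, 0.03, was 0.137, -0.0280 and -0.254 under the 80% tag rule, the 95th percentile and thinning. The causes were not tested. Depth limits rare markers: Gp1bb, with 12 UMIs, gave a ratio of 1.57 (-0.25 to 3.84).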
